A study of Caenorhabditis elegans with 2 samples.

Results

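Chaperones are proteins that help other proteins fold. The genes described here are 6 chaperone genes of Caenorhabditis elegans, namely F44E5.4, F44E5.5, hsp-1, hsp-90, hsp-60 and dnj-13, out of 19985 protein-coding genes in the annotation. They were chosen from these same data, as chaperone genes with a strong region at the promoter, so the signals and ranks of their regions below are a description with no test. The data are chromatin immunoprecipitation with sequencing (ChIP-seq) of young adult worms at 78 h, of mixed sex, grown from starved L1 larvae. The strain, OP208 with the genotype unc-119(ed3) III; wgIs208, carries a transgene for a nuclear hormone receptor joined to green fluorescent protein, and an antibody to that protein was used. Most labels name the receptor nhr-27, while 1 free-text note names NHR-270. There is 1 group of 2 biological replicates and no second condition.

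Each replicate has a list of 30000 regions, the pooled reads have another 30000, and the thresholded set made with the irreproducible discovery rate (IDR) has 393. A region's signal is the authors' value of unstated scale, its rank is its place by signal in its own list, and its summit is the position the caller marked. Pooled signals ran from 28.5 to 430.2 with a median of 38.1, and the lowest thresholded region had 92.1. Replicate signals are on a lower scale, with medians of 22.5 in replicate 1 and 21.2 in replicate 2. The depth in reads is unknown, and no region can be set against worms without the tagged protein. The SD of 2 replicates shows the spread between these libraries only.

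Chaperones of the Hsp70 family bind unfolded stretches of protein and release them with the help of DnaJ proteins, which pass substrates on and set off ATP hydrolysis. Hsp90 acts later on partly folded clients, and in vertebrates these include some nuclear hormone receptors. Hsp60 forms a chamber in mitochondria that is closed by a small partner, Hsp10. Many of their genes are switched on under stress by heat shock factor, which binds short inverted repeats in promoters.

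The promoter window of a gene reached 1000 bp upstream and 200 bp downstream of each annotated 5′ end, and a region was assigned by its summit. All 6 genes had a thresholded summit in the window, against 1.01% of all protein-coding genes, a count that follows from how they were chosen. They rest on 5 regions, since F44E5.4 and F44E5.5 share one. The DNA under these regions is shown because every one held a heat shock word, GAANNTTC or TTCNNGAA, near its summit. The lines give the plus strand of WBcel235 from the RefSeq genome, with heat shock words in capitals. The line for the F44E5 genes is the whole region (chrII:11759378-11759584). The others reach 100 bp to each side of the pooled summit: hsp-1 (chrIV:17278438-17278638), hsp-90 (chrV:14685643-14685843), hsp-60 (chrIII:1619027-1619227) and dnj-13 (chrII:11545399-11545599).
F44E5.4/F44E5.5: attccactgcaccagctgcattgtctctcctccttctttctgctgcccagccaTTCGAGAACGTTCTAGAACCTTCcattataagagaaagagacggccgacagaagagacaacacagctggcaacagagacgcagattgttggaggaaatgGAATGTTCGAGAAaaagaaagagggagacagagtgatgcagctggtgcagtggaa
hsp-1: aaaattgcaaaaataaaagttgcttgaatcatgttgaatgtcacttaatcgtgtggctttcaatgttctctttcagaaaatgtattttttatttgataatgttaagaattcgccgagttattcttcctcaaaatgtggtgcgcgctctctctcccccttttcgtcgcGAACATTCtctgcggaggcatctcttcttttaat
hsp-90: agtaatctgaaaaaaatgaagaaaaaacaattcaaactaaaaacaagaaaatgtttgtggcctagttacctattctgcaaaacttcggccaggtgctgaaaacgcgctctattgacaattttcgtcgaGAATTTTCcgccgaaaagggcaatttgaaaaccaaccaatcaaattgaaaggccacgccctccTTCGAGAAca
hsp-60: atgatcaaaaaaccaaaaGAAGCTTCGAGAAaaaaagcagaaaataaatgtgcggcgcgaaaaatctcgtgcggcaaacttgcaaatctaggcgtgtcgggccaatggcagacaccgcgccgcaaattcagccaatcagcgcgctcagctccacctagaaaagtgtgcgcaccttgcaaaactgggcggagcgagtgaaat
dnj-13: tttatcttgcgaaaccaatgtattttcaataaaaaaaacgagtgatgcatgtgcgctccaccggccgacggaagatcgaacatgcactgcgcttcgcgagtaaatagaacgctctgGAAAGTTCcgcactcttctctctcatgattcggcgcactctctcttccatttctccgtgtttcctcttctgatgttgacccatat

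F44E5.4 and F44E5.5 (WBGene00009691 and WBGene00009692), a divergent pair of stress-inducible Hsp70 genes, had the strongest region of the 6. Their region had a signal of 126 in replicate 1 and 123 in replicate 2, a mean of 124 ± 2.15 (SD, n = 2), and 250 in the pooled list. Of all protein-coding windows, only that of the ribosomal protein gene rpl-3 had a higher pooled region (278). The replicates gave nearly the same value here, and the rank was 10 in replicate 1, 7 in replicate 2 and 7 in the pooled list. The summits of both replicates lay 1 bp apart. The pooled summit was 168 bp upstream of F44E5.4 and 183 bp upstream of F44E5.5, or 7.5 bp from the middle of the 350 bp between both 5′ ends. No exon or transcript covers it.

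The region between both Hsp70 genes was also narrow, at 207 bp in the pooled list, 198 bp in replicate 1 and 186 bp in replicate 2, against the usual 390 bp, 404 bp and 390 bp. Of the 393 thresholded regions 10 were narrower than usual, at 98 to 218 bp, among them those of ranks 1 to 5, 7 and 8. The coding sequences of F44E5.4 and F44E5.5 are identical over all 1935 bases, and the locus is an inverted repeat. Every word of 36 bases in the region occurs once in the genome, while only 4.73% of such words in the 500 bp to its left do, and 4.95% in the 500 bp to its right. By words of 36 bases the DNA found once in the genome around the region is a stretch of 236 bp (chrII:11759364-11759599), whose edges lie 14 bp and 15 bp from those of the region, with 7 repeated positions in a row on each side. By words of 50 bases, a setting chosen after seeing the data, it is a stretch of 350 bp (chrII:11759307-11759656) with 2160 repeated positions in a row on each side. The edges of that longer stretch lie 71 bp and 72 bp from those of the region. Neither F44E5.4 nor F44E5.5 had a region in its gene body in any list. Whether reads that match more than 1 place were kept is not given in the sources used here, and the part of the repeat in the width and in the empty gene bodies was not tested.

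hsp-1 (WBGene00002005) encodes the constitutive cytosolic Hsp70, whose coding sequence is 65.2% identical to that of F44E5.4. Its region (chrIV:17278343-17278732, 390 bp wide) was the weakest of the 5. It had 42.2 in replicate 1 and 54 in replicate 2, a mean of 48.1 ± 8.36 (SD, n = 2), and a pooled signal of 100.5. In ranks this was 1064 in replicate 1, 297 in replicate 2 and 282 in the pooled list. So among the 393 highest regions of replicate 1 alone hsp-1 was missing. The −log10 q value of its region was 0.983 in replicate 1 and 2.3 in replicate 2. The pooled summit lay 421 bp upstream of the 5′ end, and those of the replicates 441 and 434 bp upstream. Replicate 2 also listed a weak region 109 bp downstream of the 5′ end (20.8, rank 15887).

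hsp-1 was the only one of the 6 whose gene body had a stronger region than its promoter in a replicate. In replicate 1 a region 253 bp downstream of the 5′ end had 46.1 and rank 672, above the promoter's 42.2. That region overlaps the weak one that replicate 2 listed inside the window, 109 bp downstream. In replicate 2 the highest of 3 regions beyond the window lay 2165 bp downstream and had 51.2, below the promoter's 54. In the pooled list the body held 3 regions, of 70.01 (rank 1279), 65.2 and 54.1. The order of the promoter and the highest body region at hsp-1 therefore differed between the replicates, but that body region was not the same one in both. The nearest tRNA, snoRNA or snRNA gene to the promoter summit, the snoRNA gene F26D10.24, lies 1508 bp away inside hsp-1.

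dnj-13 (WBGene00001031) encodes a DnaJ protein of the B subfamily, a partner of Hsp70. Its region (chrII:11545304-11545693) had 65 in replicate 1 and 96.2 in replicate 2, a mean of 80.6 ± 22.1 (SD, n = 2), and a pooled signal of 166, the highest of the 6 genes after the F44E5 pair. Its ranks were 140 in replicate 1, 25 in replicate 2 and 30 in the pooled list. Its summit lay 202 bp upstream in the pooled list, 215 bp in replicate 1 and 205 bp in replicate 2. The summit is in the exon of F54D5.22, an unclassified noncoding RNA annotated on both strands, and within an intron of the longer dhgd-1 transcript.

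hsp-90 (WBGene00000915) encodes the cytosolic Hsp90. Its region (chrV:14685548-14685937) had 52.9 in replicate 1 and 97.3 in replicate 2, a mean of 75.1 ± 31.4 (SD, n = 2), and a pooled signal of 159.5. The replicates differed by 1.84-fold, the widest gap of the 5 regions, with ranks of 353 in replicate 1 and 22 in replicate 2. The pooled rank was 36. hsp-90 has 2 annotated 5′ ends. The summit lay 417 bp upstream of the inner 5′ end and 825 bp downstream of the outer one, so it is in the intron of the longer transcript and outside the window of its start. A weaker region beside it, 218 bp upstream of the inner 5′ end, had a pooled signal of 30.2 at rank 26725.

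hsp-60 (WBGene00002025) encodes the mitochondrial chaperonin. Its region (chrIII:1618932-1619321) had 59.1 in replicate 1 and 86.8 in replicate 2, a mean of 72.9 ± 19.5 (SD, n = 2), and a pooled signal of 155. Its ranks were 212 in replicate 1, 35 in replicate 2 and 42 in the pooled list. Of the strongest summits in the 6 windows this one was the farthest from its gene, 615 bp upstream of the nearest hsp-60 5′ end in the pooled list, 595 bp in replicate 1 and 642 bp in replicate 2. The replicates' summits lay 47 bp apart, against 1 to 11 bp for the other 4 regions. The same region lay only 198 bp upstream of Y22D7AL.10, annotated as the mitochondrial 10 kDa heat shock protein, which starts 812 bp away on the other strand. The Hsp60 and Hsp10 genes thus share the region, as F44E5.4 and F44E5.5 share theirs. Here, however, the summit lies nearer to the Hsp10 gene, while that of the F44E5 pair is close to the middle.

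**Figure D1:**
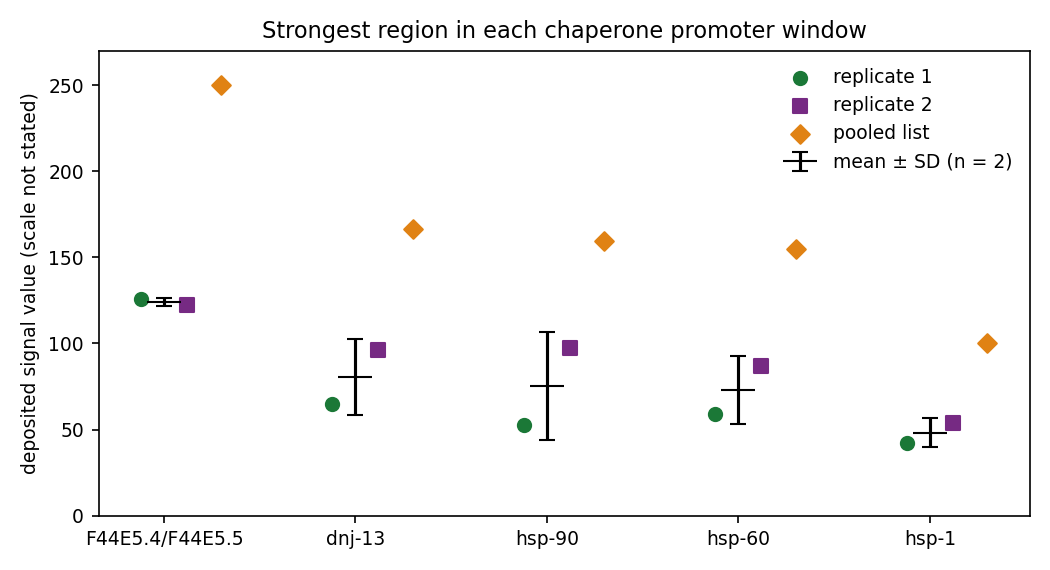
Deposited signal of the strongest region in each promoter window, by replicate, as mean ± SD of the 2 replicates and in the pooled list. The replicates nearly coincide at F44E5.4/F44E5.5 (126 and 123), while replicate 2 is above replicate 1 at dnj-13, hsp-90, hsp-60 and hsp-1.

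The plot of signals shows that replicate 2 was higher at 4 of the 5 regions. The ratio of replicate 2 to replicate 1 was 1.84 at hsp-90, 1.48 at dnj-13, 1.47 at hsp-60, 1.28 at hsp-1 and 0.976 at F44E5.4/F44E5.5. Over the 392 thresholded regions found in both replicates the median ratio was 0.997, with quartiles of 0.786 and 1.26. Thus 4 of the 5 chaperone regions were past the upper quartile, and 6.63% of thresholded regions had a higher ratio than hsp-90. Pooled signals were close to the sum of the replicates, at 1.01 to 1.06 times that sum. With 2 replicates, no test of these ratios was made.

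**Figure D2:**
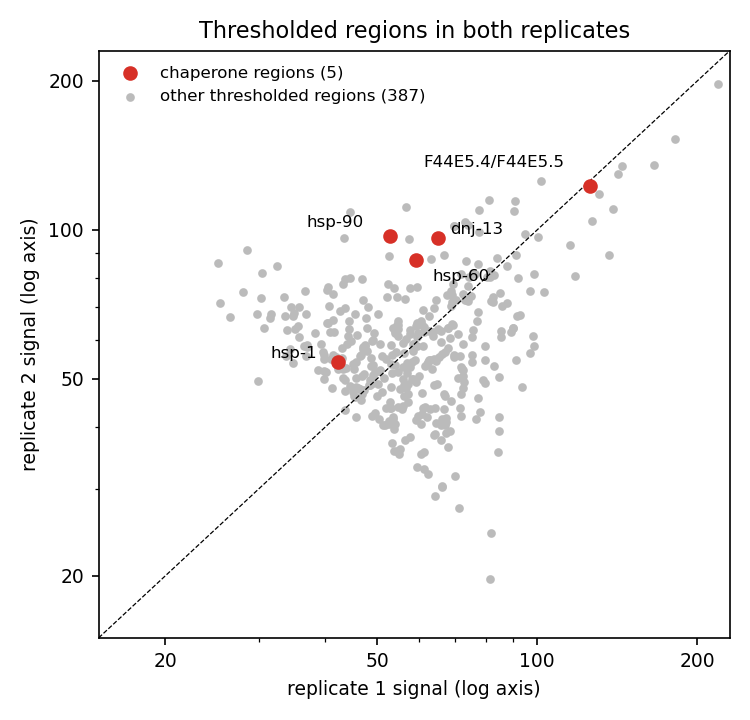
Signal in replicate 1 (x) and replicate 2 (y), both on log axes, of 392 thresholded regions that have a match in each replicate, with the 5 chaperone regions in red and a dashed line where both are equal. F44E5.4/F44E5.5 lies close to the line, and the other chaperone regions lie above it, hsp-90 farthest at 1.84-fold.

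By list, each gene's call depended on the replicate only for hsp-1. Among as many regions as the thresholded set holds, the highest of replicate 1 had a summit in 0.891% of protein-coding windows and in those of 5 of the 6 genes, all but hsp-1. The highest of replicate 2 had a summit in 1.03% of windows and in those of all 6. Any pooled region, however weak, was in the window of 36.4% of protein-coding genes. Within the 6 windows F44E5.4, F44E5.5 and dnj-13 had 1 region in each list, while hsp-60, with 4 annotated 5′ ends, had 3 in the pooled list. The weaker pooled regions of hsp-60 had 49.85, 7 bp downstream of its innermost 5′ end, and 30.5, 750 bp upstream of that end.

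Most of these promoters are divergent. At 4 of the 5 regions a second protein-coding gene had the summit in its own window, against 22.2% of the 167 thresholded regions with a protein-coding gene. Among the 4 is the F44E5 region, whose genes were chosen as a pair with a shared divergent promoter. The 167 regions include the 5 chaperone regions. Besides the F44E5 genes with each other and hsp-60 with Y22D7AL.10, hsp-90 shared its region with C47E8.4, a FAM50 homolog, and dnj-13 with F54D5.9, a gene for an F-box protein. C47E8.4 was the nearer gene, with the summit 258 bp upstream of it against 417 bp for the inner start of hsp-90. Its 5′ end lies inside the longer hsp-90 transcript, so the pair is divergent only from that inner start. F54D5.9 was the farther, at 671 bp against 202 bp for dnj-13. The noncoding RNA F54D5.22 starts nearer than both, 35 bp from the summit on the plus strand and 114 bp on the minus strand. Only hsp-1 shared its region with no protein-coding gene, but the noncoding RNA F26D10.23 starts 125 bp before the summit. When a summit counted only for the protein-coding gene with the nearest 5′ end, 3 of the 6 stayed, namely F44E5.4, hsp-1 and dnj-13. Noncoding genes were left out of this setting. At hsp-1 and dnj-13 a noncoding RNA starts nearer to the summit than the chaperone gene does. The lists hold no strand or expression, so which gene of a divergent pair a region belongs to cannot be told apart.

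**Figure D3:**
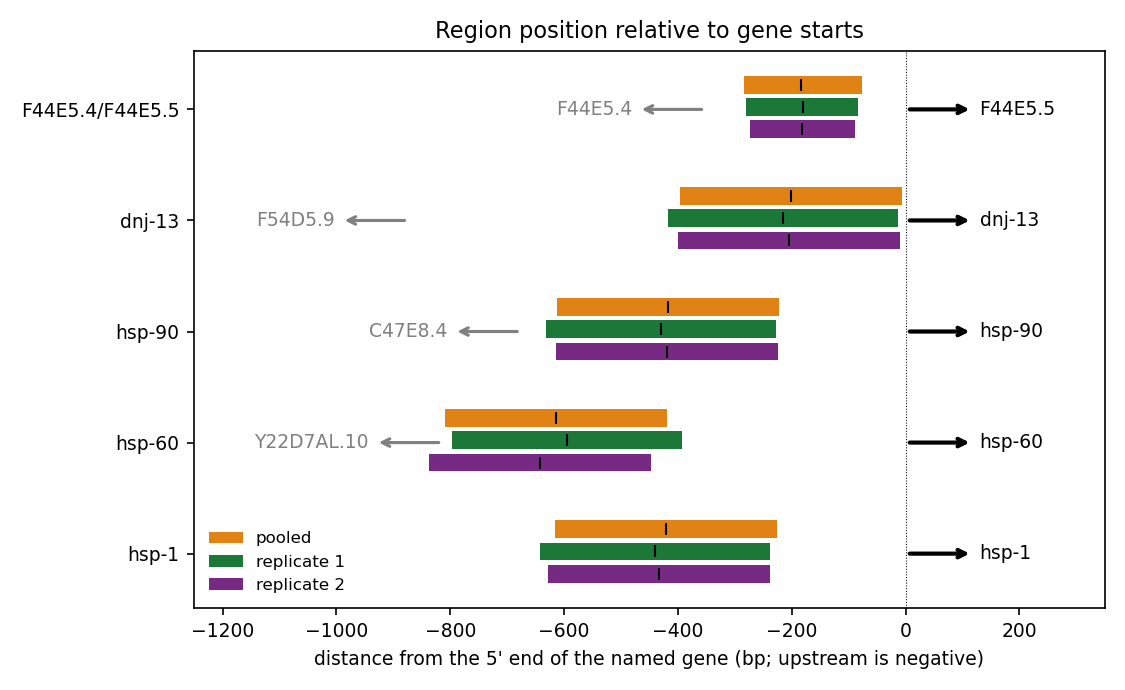
Strongest region of each promoter window (bars) and its summit (tick) in the pooled list and in both replicates, by distance in bp from the 5′ end of the gene named at the right, with the divergent neighbour in grey. Summits lie 183 to 615 bp upstream of those genes in the pooled list, and the hsp-60 region borders Y22D7AL.10.

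Beyond the promoter windows, hsp-60 and hsp-90 also had regions in the gene body. The highest at hsp-60 had a pooled signal of 72.7 (rank 1063), with 52.4 in replicate 1, while the only body region of replicate 2 lay elsewhere and had 19.5. The highest at hsp-90 had a pooled signal of 66.5 (rank 1634), with 27.6 in replicate 1 and 49.3 in replicate 2. At dnj-13 the highest had 44.3 (rank 9118). All were below the lowest thresholded signal of 92.1.

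The heat shock word, meaning GAANNTTC or TTCNNGAA, was sought within 100 bp of each summit. Each form reads the same on both strands, and the forms overlap where units follow each other. It was found at 5 of 5 chaperone regions, against 24.6% of the 167 thresholded regions in protein-coding windows, 16.3% of all 393 thresholded regions and 21.4% of the 29607 other pooled regions. The F44E5.4/F44E5.5 region had 6, hsp-90 and hsp-60 had 2 each, and hsp-1 and dnj-13 had 1 each. The word nearest to a summit was that of dnj-13, centred 19.5 bp away, followed by F44E5.4/F44E5.5 (29.5 bp), hsp-90 (31.5 bp), hsp-1 (70.5 bp) and hsp-60 (73.5 bp). A run of 3 units, that is, both forms overlapping by a shared unit, was at 2 of the 5 regions, F44E5.4/F44E5.5 and hsp-60. It was at 3.59% of thresholded regions in protein-coding windows and 0.996% of the other pooled regions. The 167 and the 393 thresholded regions include the 5 chaperone regions, here and below. Of the 167, 41 had the word, among them the 5 chaperone regions, and 6 had the run, among them 2 chaperone regions. A match is a description of letters, and binding of heat shock factor was not measured.

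**Figure D4:**
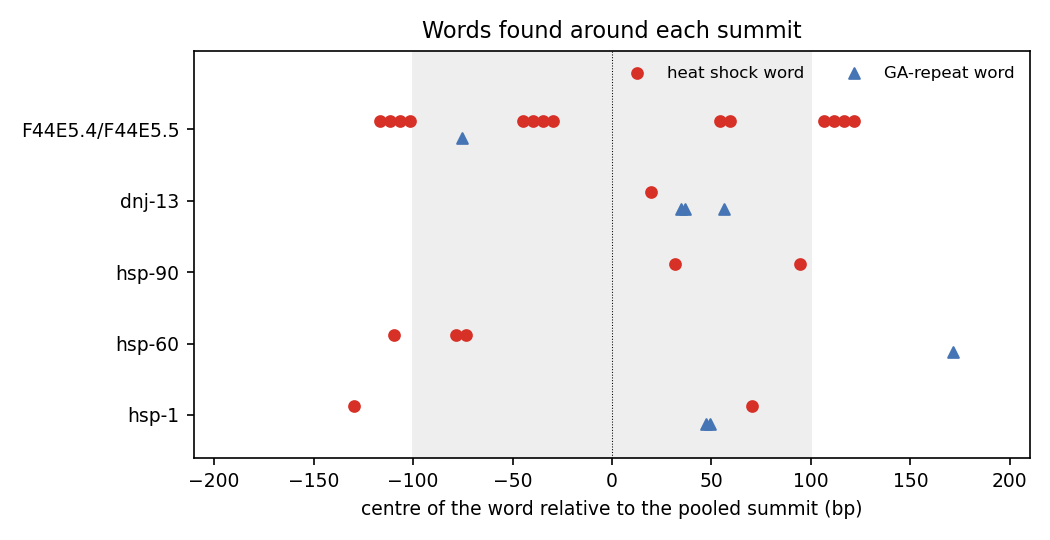
Centres of heat shock words (circles) and of the GA-repeat word (triangles) by distance in bp from the pooled summit of each region, with the 100 bp to each side shaded. Every region has at least 1 heat shock word in the shaded part, and F44E5.4/F44E5.5 has 6.

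In the F44E5 promoter the words lay in clusters. A run of 4 overlapping words was centred 29.5 to 44.5 bp left of the summit, and a run of 2 was centred 54.5 to 59.5 bp right of it. Outside the shaded 100 bp, 4 more words were centred on each side, at 101.5 to 116.5 bp on the left and 106.5 to 121.5 bp on the right. A TATAAA word, the core of many TATA boxes, was centred 139.5 bp from the summit towards F44E5.4 and another 144.5 bp towards F44E5.5. Of the other words sought on both strands within 100 bp, GAGAGA was at 3 of the 5 regions (F44E5.4/F44E5.5, hsp-1 and dnj-13), against 29.3% of thresholded regions in protein-coding windows. CCAAT was also at 3, hsp-90, hsp-60 and dnj-13, against 28.1%. AGGTCA, a core word of many nuclear receptor sites, was at 0 of the 5, against 7.19% of those 167 regions. TATAAA was at 0 against 13.2%, CGAGAG at 0 against 23.4% and CACGCG at 0 against 16.17%.

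Read by promoter instead, from 250 bp before to 50 bp after the 5′ end, the words were spread unevenly. F44E5.4 and F44E5.5 had 10 heat shock words each, hsp-1 had 2 and dnj-13 had 1. The promoters of the F44E5 pair overlap, so the 6 words within 100 bp of their shared summit were counted for both. At hsp-90 the outer 5′ end had 4 and the inner one, next to the region, had 1. None of the 3 outer hsp-60 5′ ends had any, while Y22D7AL.10 across the shared region had 3. Among 19973 protein-coding promoters, 32.6% held the word and 1.98% a run of 3 units. GC content within 100 bp of the summit was 49.3% for F44E5.4/F44E5.5, 49.8% for hsp-60, 46.3% for dnj-13, 38.8% for hsp-90 and 36.8% for hsp-1, and thresholded regions in protein-coding windows had a median of 44.8%.

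The other chaperone genes were read from a list of 81 in 8 classes. Of these 50 had a pooled region in the window (61.7%) and 5 a thresholded summit (6.17%), against 36.4% and 1.01% of all protein-coding genes. The median of their highest pooled signal was 39.2, close to the 40.2 over all genes with a region and far below the 163 of the 6 genes, whose high values are the reason they were chosen. Cytosolic ribosomal protein genes, for comparison, had 7 of 81 with a thresholded summit (8.64%) and a median of 50.9. The 5 other chaperone genes with a thresholded summit were Y22D7AL.10 through the hsp-60 region, bag-1, dnj-9, cct-8 and dnj-19. Among as many of the highest regions of replicate 2 alone 2 of them stayed, Y22D7AL.10 and cct-8, and with replicate 1 alone 3 stayed, Y22D7AL.10, bag-1 and dnj-9.

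The thresholded ones beside Y22D7AL.10 had signals near that of hsp-1. bag-1, a nucleotide exchange factor of Hsp70, had 108.6 in the pooled list, with 60.4 in replicate 1 and 40.5 in replicate 2. dnj-9, a DnaJ protein, had 104, with 56.2 and 48.5 in replicates 1 and 2. cct-8, a subunit of the cytosolic chaperonin, had 103, with 49.2 and 53.4 in replicates 1 and 2. dnj-19, another DnaJ protein, had 101, with 45.2 and 47.0 in replicates 1 and 2. Of the 6 genes hsp-1 came nearest to the lowest thresholded signal of 92.1, with 100.5 at rank 282. The highest chaperone gene outside the thresholded set was the DnaJ gene dnj-20, with 90.5 at rank 420.

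Most classes are too small for their counts to be read against the 1.01% of all protein-coding genes with a thresholded summit. In the Hsp70 and Hsp110 class, with 0 of 8, the highest signals were those of hsp-3 (73.4, rank 1019) and hsp-4 (57.95, rank 3077), both Hsp70 proteins of the endoplasmic reticulum, and stc-1 (38.8). In the Hsp90 class enpl-1 had 59.1 and hsp-75 had no pooled region. Among co-chaperones unc-23, a BAG domain protein, had 78.3, and ahsa-1, an activator of the Hsp90 ATPase, had 75.7. The prefoldin genes pfd-4 (58.6), pfd-6 (49.0) and pfd-1 (41.7), the chaperonin gene cct-6 (43.6) and hsb-1 (30.9), an inhibitor of heat shock factor, were lower. Of 14 small heat shock protein genes 5 had a pooled region, a share near the 36.4% of all protein-coding genes, with a highest signal of 38.4 at hsp-16.2 and hsp-16.41, which share a region, and 37.7 at hsp-25.

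**Figure D5:**
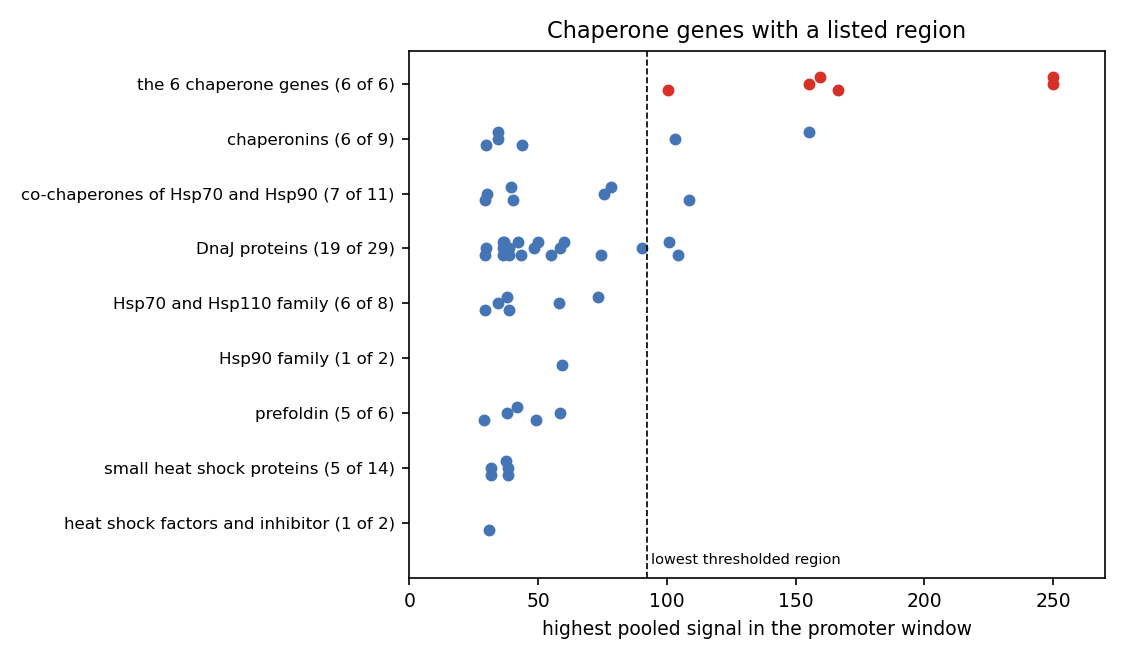
Highest pooled signal in the promoter window of the 6 chaperone genes (red) and of other chaperone genes by class (blue), with the number that had a pooled region of those in the class; the dashed line is the lowest thresholded signal, 92.1. The 6 genes lie between 100.5 and 250, and 5 other genes lie past the line, the highest of them Y22D7AL.10 at 155.

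Of the 81 other chaperone genes, 39 had a heat shock word in the promoter (48.1%) and 11 a run of 3 units (13.6%). Of those 11, 2 had a thresholded summit, Y22D7AL.10 (3 words, 155) and bag-1 (2 words, 108.6). The 8 genes with 3 or more words, a cut chosen after the values were seen, spanned a wide range, from Y22D7AL.10 and ahsa-1 (4 words, 75.7) to genes with no pooled region. hsp-70, the stress-inducible Hsp70 gene with a coding sequence 80.3% identical to F44E5.4, had 3 words in its promoter and no pooled region, with only a region of 16.45 at rank 27521 in replicate 2, in a window where 100% of the words of 36 bases occur once in the genome. hsp-16.2 and hsp-16.41 had 4 words each and a shared region at rank 14643. hsp-110 had 4 and a region of 34.5 at rank 19682. hsp-16.1 had 4 words and hsp-16.48 had 3 with no pooled region, and in their windows only 6.78% and 0% of the words of 36 bases occur once. The part of these copies in the missing regions was not tested. Of the 50 other chaperone genes with a pooled region, 25 had a heat shock word within 100 bp of the strongest summit (50%). This was so at 5 of 5 of the chosen regions and at 21.4% of all pooled regions outside the thresholded set, wherever they lie. The 25 are counted by gene, not by region. Y22D7AL.10 is among them through the hsp-60 region, and hsp-16.2 and hsp-16.41 through the region they share.

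The genes whose promoter regions were most like those of the 6, by the distance of log10 signal in the 2 replicates among 3961 other protein-coding genes (3962 for hsp-1) with a region in the replicate lists, were of several kinds. Nearest to F44E5.4 and F44E5.5 were egg-5 (127 in replicate 1 and 104 in replicate 2, distance 0.0707) and rpl-3 (distance 0.0734). Nearest to hsp-1 were vig-1 (41.8 and 55.2 in replicates 1 and 2, distance 0.0106) and pdi-2, which encodes a protein disulfide isomerase (distance 0.0133). Nearest to hsp-90 were tos-1 (distance 0.0408) and Y22D7AL.10 (distance 0.0692), that is, the hsp-60 region. Nearest to hsp-60 were tos-1 (distance 0.0512) and T28F4.5 (distance 0.0539), and nearest to dnj-13 were mrps-28 (distance 0.0352) and H41C03.3 (distance 0.0397). The likeness rests on 2 libraries.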

How the data were processed

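Per the deposited text notes, regions were made on assembly ce11, which is WBcel235, from each replicate's alignment, from both together and from a control alignment that was not used here. No source used here gives the peak caller, the aligner or the IDR threshold. The deposited lists hold, per region, the authors' signal value, a −log10 q value and a summit offset. Signal served only for description and ranking inside each list. Lists of 30000 regions stop there, so a missing region may lie below the list's end.

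Genes came from Ensembl release 115 and product names and sequence from RefSeq, both on WBcel235. Analyses used Python 3.11.15 with pandas 2.3.3, numpy 2.4.6 and Biopython 1.88, and region assignment and word search were tested on simulated data. No significance test was run, because the genes were chosen on these signals. Members and gene lists were chosen with earlier results of these data known. Of 87 chaperone symbols 6 were not counted: F11F1.1, which RefSeq does not describe as a chaperone, dnj-6, hsp-16.11, hsp-16.49 and hsf-2, which matched no protein-coding gene by name, and C01G10.8, a second name of ahsa-1. Named genes are the 6, those sharing their regions, in each class the thresholded genes and the 3 highest, and the 2 most like each of the 6. hsp-70, hsp-75, hsp-110, hsp-16.1 and hsp-16.48, and the genes given beside bag-1 among those with a run of 3 heat shock units, were named after their values were seen.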

Additional observations from a re-analysis of the deposited data

How the results depend on the processing

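The count of 6 chaperone genes with a thresholded summit was 5 to 6 when one replicate was left out. It was 3 with the nearest protein-coding 5′ end only, which by construction gives each summit to 1 gene. It was 5 in the higher 196 thresholded regions (without hsp-1), 5 with a window of 500 bp upstream and 100 bp downstream (without hsp-60) and 5 with the outermost 5′ end only (without hsp-90). The count of other chaperone genes, 5 in the thresholded set, was 2 to 4 when one replicate was left out. Without replicate 1 it held Y22D7AL.10 and cct-8. Without replicate 2 it held Y22D7AL.10, bag-1 and dnj-9, which are 3 of the 5, and dnj-20, which is not among them. It was 1 in the higher 196 regions and 3 with the nearest protein-coding 5′ end only. The cause of these changes was not tested. Single replicates gave signals of 123 to 126 for F44E5.4 and F44E5.5, 42.2 to 54 for hsp-1, 52.9 to 97.3 for hsp-90, 59.1 to 86.8 for hsp-60 and 65 to 96.2 for dnj-13, against the pooled list made from both replicates. With the shorter window the highest signal of hsp-60 was 49.85. Summit positions by single replicate were -170 to -169 bp for F44E5.4, -182 to -181 for F44E5.5, -441 to -434 for hsp-1, -430 to -419 for hsp-90, -642 to -595 for hsp-60 and -215 to -205 for dnj-13. A run of 3 heat shock units was near the summit of 3 of the 6 genes. The share of words found once beside the F44E5 region was 4.88% and 5.1% with 50 bases, a setting chosen after seeing the data.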

Other observations

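A run of 3 heat shock units was in 395 protein-coding promoters, and 13 of these genes had a thresholded summit in the window (3.29%). Of these F44E5.4, F44E5.5, hsp-1 and hsp-90 were chosen for their strong regions, and Y22D7AL.10 was counted through the hsp-60 region. Without the chosen genes the count was 9 of 391 (2.3%), and without Y22D7AL.10 as well it was 8 of 390 (2.05%), against 1.01% of all protein-coding genes. The difference was not tested. The 8 were bag-1, egg-5 (219.9 in the pooled list), W04C9.4 (182.6), ddp-1, F25H9.7, F46B6.6, vig-1 and acbp-6. A run in the promoter need not lie at the summit. At hsp-1 no run was within 100 bp of the summit. At hsp-90 the run is at the outer 5′ end, whose window does not hold the summit. egg-5 and vig-1 are also the genes nearest in replicate signal to the F44E5 genes and to hsp-1. Those nearest to hsp-90, hsp-60 and dnj-13, namely tos-1 and mrps-28, are not among the 13. The 6 genes were chosen on these signals, so the overlap is a description only. Any pooled region was in the window of 154 of the 395 (39%), against 36.4% of all protein-coding genes.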
